A study of Homo sapiens with 2 samples.

Results

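The NRF2 pathway and its antioxidant target genes were examined in chromatin accessibility data from U2OS, an established human osteosarcoma cell line. The 10 genes, of 20037 protein-coding genes in the table used, were NFE2L2, KEAP1, HMOX1, NQO1, GCLC, GCLM, TXNRD1, SRXN1, GPX2 and GPX4. Every accessible region from 10 kb before to 10 kb after the RefSeq bounds of these genes was taken. This gave 114 of the 359137 regions formed by merging overlapping peaks of both libraries, built from 81 sh-ctrl peaks and 94 sh-VNGD peaks. One region beside GPX2 was selected on its pileup, known to be lower in sh-VNGD than in sh-ctrl, so its difference is a description and supports nothing else.

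Cells of the sh-VNGD group carried an infected hairpin that targets Vanguard (VNGD), a long non-coding RNA, and cells of the sh-ctrl group an infected control hairpin. Both were grown in DMEM with 10% FBS. Open chromatin was read by ATAC-seq, a method that marks accessible DNA by letting a transposase (Tn5) cut it and attach adapters. Each group had 1 library, so no difference below has a replicate check, no p-value was computed, and every interval covers counting error only. The measurement does not read RNA, so neither the knockdown nor the expression of any gene was checked.

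NRF2, the product of NFE2L2, is a transcription factor that KEAP1 holds in the cytoplasm and presents to a ubiquitin ligase for degradation. Oxidants and electrophiles modify KEAP1, and NRF2 then enters the nucleus, pairs with small MAF proteins and binds antioxidant response elements beside genes for glutathione synthesis, thioredoxin reduction, quinone reduction and haem breakdown. BACH1 and BACH2 compete for the same elements. Open chromatin at such elements is a measure distinct from the amount of NRF2 protein, which ATAC-seq does not read.

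The antioxidant response element core TGACNNNGC was sought on both strands of the 300 bases around each annotated start, from 250 before to 50 after it, in the RefSeq sequences of GRCh38.p14. It overlaps the AP-1 site TGACTCA where the 3 free bases are TCA. Of the 10 genes, 9 were matched, with 14 starts between them. The core was found beside 4 genes (GPX2, GCLM, TXNRD1 and KEAP1), at 5 of the 14 starts, while 13.8% of 22199 promoters of protein-coding genes held it. The sites are shown because they are the sequences through which the pathway is known to act, and because 1 of them lies inside the GPX2 peak that was called in sh-ctrl only. Each is printed 5′ to 3′ on the strand of its gene, with the core in capitals. Of the sites listed, the GPX2 site lies at chr14:64942859-64942867, the GCLM site at chr1:93909456-93909464, the TXNRD1 site of the inner start at chr12:104286930-104286938 and the KEAP1 sites at chr19:10502817-10502825 and chr19:10502794-10502802.
GPX2, minus strand: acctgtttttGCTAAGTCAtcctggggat
GCLM, minus strand: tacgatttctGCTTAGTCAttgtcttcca
TXNRD1 inner start, plus strand: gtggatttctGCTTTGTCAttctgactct
KEAP1 inner start, minus strand, first site: acttttattgTGACACGGCgggcgcccgg
KEAP1 inner start, minus strand, second site: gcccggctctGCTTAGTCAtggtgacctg
In 4 of these 5 sites the core reads on the strand opposite to the gene, as GCNNNGTCA. The outer start of TXNRD1 held 2 further matches. No promoter of the 9 genes held TGACTCA, which 4.01% of all promoters held. The GC box GGGCGG was found beside 7 of the 9 genes, at 12 of the 14 starts, and in 56.3% of all promoters. For CCAAT it was 4 of the 9 genes, 6 of the 14 starts and 34.7% of all promoters. Windows of neighbouring starts can overlap, as at GPX4, so a site can count at more than 1 start. Absence of a match says only that these letters were not in this window. The member promoters had a median G and C content of 70.8%, against 62.3% over all promoters, and GPX2 and the inner start of TXNRD1 were lowest at 53.7%, with 4 and 12 CpG dinucleotides.

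Before the results, the levels need their scale. A value in tags is the number of tags over a peak's summit. After removal of tags at repeated positions, 22931980 tags remained in sh-ctrl and 31326715 in sh-VNGD, or 1.37 times as many. Levels are therefore also given as scaled tags, meaning tags per 10000000 kept. Wherever a pair of values is given without names, sh-ctrl comes first and sh-VNGD second. The log2 ratio is sh-VNGD over sh-ctrl on that scale. At shared regions within 10 kb of protein-coding genes this ratio had a median of −0.17 where the mean pileup was 15 to 20 tags and −0.51 where it was 150 or more. Each ratio was therefore also expressed relative to the median of regions in the same class of mean pileup, called the relative log2 ratio. Without scaling to kept tags, regions of 50 to 100 tags had a median of −0.01, so a lower scaled level was general among strong regions. Start regions of marker genes did not single out one lineage. Of 7 mesenchymal genes with an annotated start, 4 had a start region in both libraries: RUNX2, a bone transcription factor (38 and 43 tags), CD44 (34 and 39), FN1 (31 and 19) and CDH2 (12 and 11). The other 3 (VIM, PRRX1 and SPARC) had none. The epithelial keratin genes KRT8 and KRT5 had 194 and 134 tags and 10 and 20 tags. Of the haematopoietic genes, CD8A had 116 and 80 tags and PTPRC had no start region.

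Of the 10 genes, 9 had an accessible region at a start in both libraries (for HMOX1, which has no annotated start in the table, at its lower-coordinate end), and in 7 of those 9 the relative log2 ratio lay between −0.15 and 0.05. The SRXN1 start was higher in sh-VNGD by pileup, the GCLC start stood at −0.49 with an interval that spans 0, and GPX2 had a start peak in sh-ctrl only. The median over the 9 was −0.05 (0.09 by fold enrichment), against −0.01 over the 11080 genes with a start region in both libraries (69.9% of those with an annotated start).

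**Figure D1:**
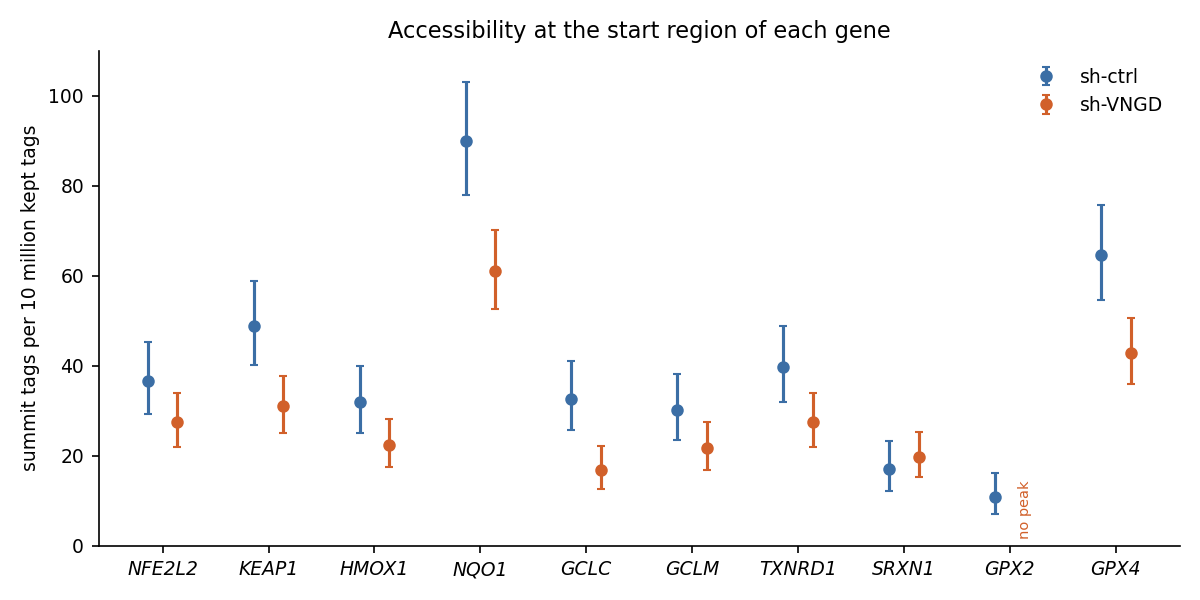
Summit tags per 10000000 kept tags (scaled tags) at the start region of each gene, with exact Poisson 95% intervals for counting error, in the sh-ctrl (blue) and sh-VNGD (orange) libraries, 1 library each. Of the 9 genes with both values, all but SRXN1 have a lower scaled value in sh-VNGD, and GPX2 has no sh-VNGD peak. NQO1 is highest in both, at 89.8 and 61.0.

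Among the regulators, the region just inside the inner start of NFE2L2, chr2:177263408-177264044, had 84 and 86 tags, a relative log2 ratio of 0.05 (counting interval −0.40 to 0.50). The adjoining region over the outermost start, chr2:177264441-177265490, had 68 and 48 tags, at −0.49 (−1.05 to 0.07). Both intervals span 0, so neither region differed from regions of like height beyond counting error. KEAP1 had a single region at its 2 annotated starts, chr19:10501936-10502974, with 112 and 97 tags and a relative ratio of −0.15 (−0.56 to 0.26). The inner start, which carries the response element sites shown above, lies within this region and the outermost start lies outside it. The remaining KEAP1 regions shared by both libraries were also close to regions of like height, between −0.23 and −0.11.

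HMOX1, haem oxygenase 1, had 73 and 70 tags at its lower-coordinate end (chr22:35380864-35381600), a relative ratio of −0.05 (−0.54 to 0.45), and no region within 1000 bp of the other end. NQO1, a quinone reductase widely used as a readout of NRF2 activity, had the highest start region of the 10 genes, with 206 and 191 tags at chr16:69726289-69727135. That was more than in 99.4% of the start regions of protein-coding genes in sh-ctrl, and the share was 99.2% for sh-VNGD. Its relative ratio was −0.05 (−0.34 to 0.24), so the start region of NQO1 did not stand apart from other regions of its height.

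GCLC and GCLM encode the catalytic and modifier subunits of the enzyme that makes the first step of glutathione synthesis. At the GCLC start (chr6:53544499-53545271) there were 75 and 53 tags, at −0.49 (−1.02 to 0.04), an interval that spans 0. In sh-ctrl this was 1 peak, while in sh-VNGD it was called as 2. GCLC is known for a response element farther upstream, and at −3.00 kb the region chr6:53547711-53548475 had 110 and 123 tags, at 0.22 (−0.16 to 0.60). The upstream region was thus the stronger of the pair in both libraries. GCLM had 69 and 68 tags over its start (chr1:93909179-93909860), at −0.01 (−0.51 to 0.50), and its other 8 shared regions lay between −0.28 and 0.63 with intervals that all span 0.

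TXNRD1, cytosolic thioredoxin reductase, is the longest of the genes at 134.5 kb and held 40 of the 114 regions. At its inner start, which carries the site shown above, the region chr12:104286566-104287451 had 91 and 86 tags, at −0.07 (−0.51 to 0.37). The outermost start had no sh-ctrl peak within 1000 bp and a low sh-VNGD peak of 19 tags. SRXN1 encodes sulfiredoxin, which repairs overoxidised peroxiredoxins. Its start region at chr20:652828-653701 had 39 and 62 tags, or 17.0 and 19.8 scaled tags. The log2 ratio was 0.22 (−0.38 to 0.84), an interval that spans 0. The relative log2 ratio was 0.68 (0.08 to 1.30), the only start region of the 10 genes with a relative interval off 0. Its mean pileup lay just above the lower bound of the class of 50 to 100 tags. The median of that class was −0.46, against −0.34 in the class of 30 to 50, so the relative value rests on the class bound. Of all gene starts in both libraries, 3.56% had an interval wholly above 0 and 4.16% wholly below. The authors' fold enrichment over local background was equal at SRXN1, 12.3 and 12.4, and the local background itself was 2.24 and 4.10 tags. That background comes from the same library, as no input control was used, so it is no independent measure. Read by fold enrichment, SRXN1 stood at 0.13, so the higher value was seen by pileup and not by fold enrichment. The 250 bases before the SRXN1 start, chr20:653201-653450 on the minus strand, are shown because this was the start with the higher signal. They held none of the 4 motifs searched, and hence no capitals.
SRXN1: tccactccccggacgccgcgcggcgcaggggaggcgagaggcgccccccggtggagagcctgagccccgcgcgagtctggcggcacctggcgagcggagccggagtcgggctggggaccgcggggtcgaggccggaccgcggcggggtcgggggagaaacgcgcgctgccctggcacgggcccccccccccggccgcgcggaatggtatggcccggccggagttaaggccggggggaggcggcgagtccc

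GPX4, the peroxidase that reduces lipid hydroperoxides in membranes, had 148 and 134 tags at chr19:1103683-1104228, at −0.08 (−0.43 to 0.26). A second region at its innermost start had 64 and 59 tags, at −0.10 (−0.64 to 0.43). In both libraries the first region was thus the higher of the pair. GPX2, a glutathione peroxidase of epithelia, was weak at its start. The region chr14:64942832-64943040, whose summit lay at −174 bp from the annotated start, had 25 tags in sh-ctrl and no sh-VNGD peak. The response element core of GPX2 lies inside it. Had the sh-VNGD library stood at the same scaled level, it would have had about 34.2 tags there. That number leaves out the median log2 ratio of −0.21 in shared regions of 20 to 30 tags. At the local background of the nearest sh-VNGD peak, 1226 bp away, 10 tags would have been enough for a call by pileup, peak width left aside. The list gives no value below its threshold, so the sh-VNGD level there is unknown. Among protein-coding genes with an annotated start, 2.3% had a start region called in sh-ctrl alone and 2.99% in sh-VNGD alone. The 250 bases before the GPX2 start, chr14:64942746-64942995 on the minus strand, are shown with the motif matches in capitals. They are, in order, CCAAT on the opposite strand, the GC box and the response element core.
GPX2: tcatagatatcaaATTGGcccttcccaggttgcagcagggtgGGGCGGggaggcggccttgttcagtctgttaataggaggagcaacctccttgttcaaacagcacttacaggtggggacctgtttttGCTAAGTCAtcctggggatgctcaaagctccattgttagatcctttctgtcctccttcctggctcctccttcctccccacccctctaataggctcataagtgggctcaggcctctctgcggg

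The GPX2 region that the selection rule names, chr14:64938571-64938917, had 54 and 15 tags, or 23.5 and 4.79 scaled tags. Its position differs from that of a promoter. GPX2 lies on the minus strand, and the region lies 241 bp beyond its lower bound, past the 3′ end of the gene and 4.01 kb from the start. It also lies within the outer bounds of CHURC1-FNTB, a read-through gene of the same locus. The log2 ratio was −2.30 (−3.23 to −1.45) and the relative ratio −1.96 (−2.89 to −1.11), and 54 of the 14934 shared regions in its class of 30 to 50 tags were lower. As the region was chosen for its lower sh-VNGD signal, this rank is a description and no evidence. By the authors' fold enrichment, 10.4 and 3.65, the region stood at −1.42. The next region, 1036 bp beyond the gene, had 25 and 30 tags, a relative ratio of 0.02 (−0.79 to 0.85). On the other side the next region was the GPX2 start, described above, with a peak in sh-ctrl only. Upstream, a region of 13 tags was called in sh-VNGD only.

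**Figure D2:**
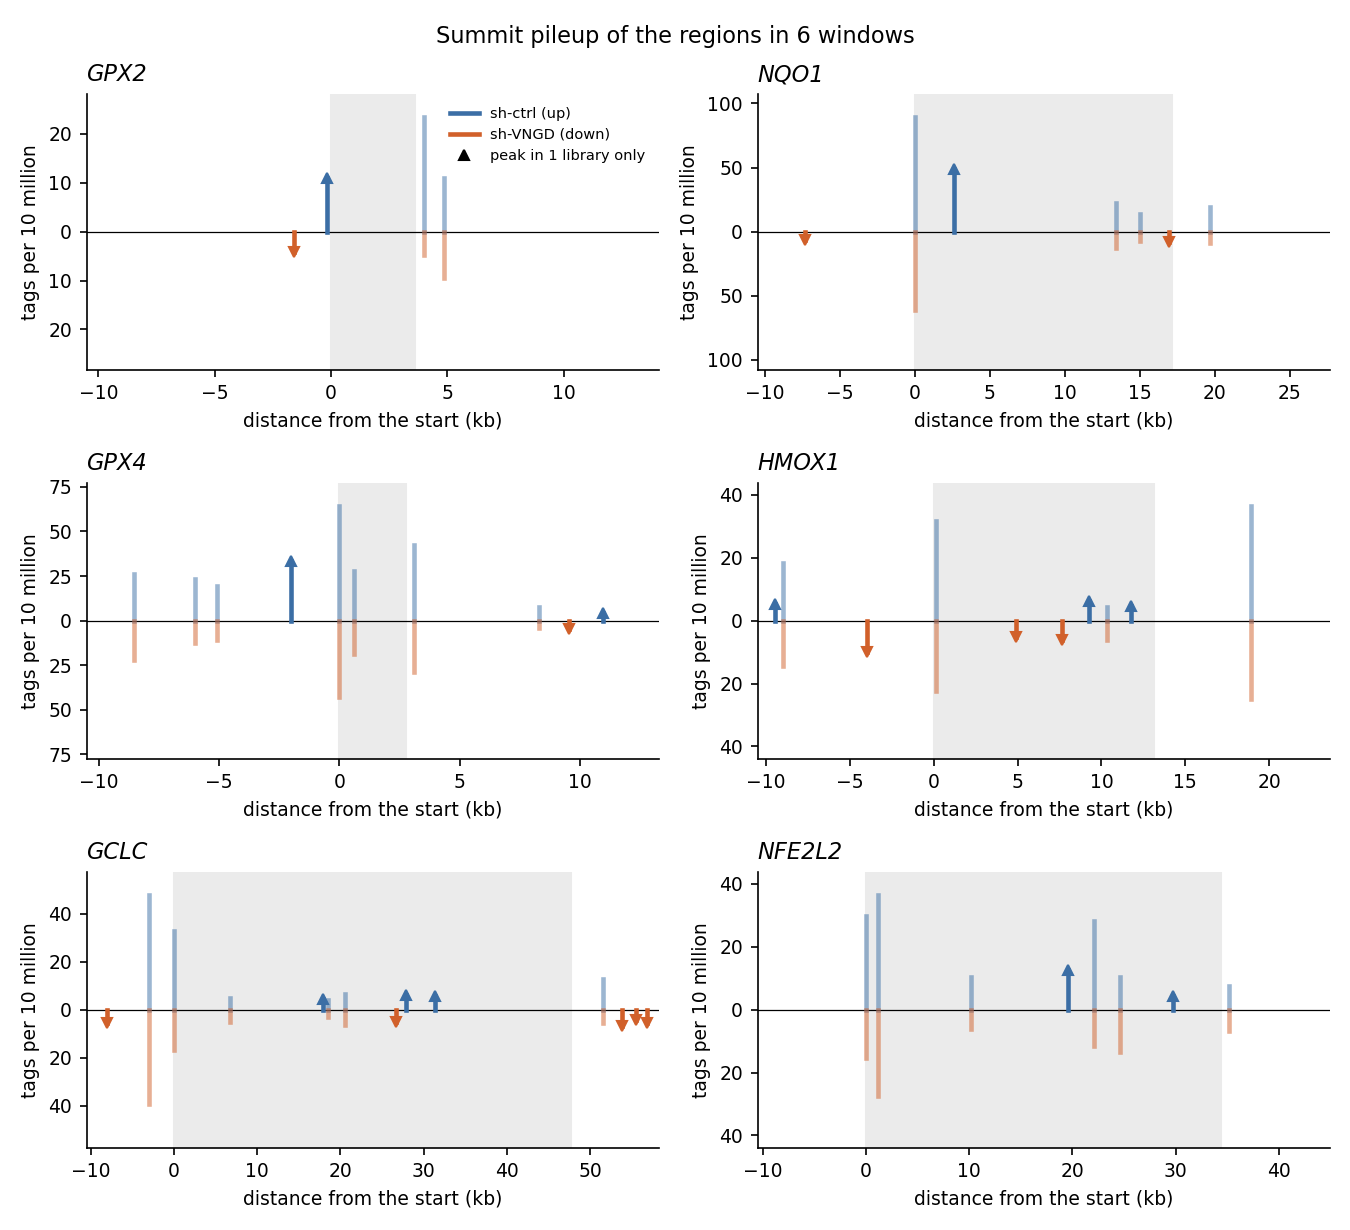
Summit pileup per 10000000 kept tags against distance from the start (kb, in the direction of the gene; for HMOX1 from its lower-coordinate end) for 6 of the genes, sh-ctrl upward in blue and sh-VNGD downward in orange, with the gene in grey. Faint bars are regions with a peak in both libraries and bars with arrowheads are regions with a peak in 1 library only. The tallest of the latter are sh-ctrl regions of NQO1 at 48.8 and GPX4 at 33.6.

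Many regions away from the starts were called in 1 library only. Of the 114 regions, 21 (18.4%) held a sh-ctrl peak only, against 16.9% of the 208111 regions within 10 kb of protein-coding genes. In sh-VNGD only, there were 34 (29.8%), against 38.7%. The numbers were therefore near or below those around all genes. Most were low, with a median of 14 tags for the first kind and 16 for the second. Had the other library stood at the same scaled level, 21 of the 21 sh-ctrl regions and 27 of the 34 sh-VNGD regions would have reached the pileup needed for a call there, judged at the local background of its nearest peak. This takes account of neither peak width nor the class medians of shared regions, which ran from −0.17 to −0.51. Reaching that pileup need not have given a call.

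A pair of the sh-ctrl regions were high. Inside NQO1, 2.63 kb from the start, the region chr16:69723808-69724100 had 112 tags in sh-ctrl, or 48.8 scaled tags, and a −log10 q of 45.0 in the authors' list, and held no sh-VNGD peak. Equal scaled accessibility would have given about 153 tags in sh-VNGD. By pileup, 30 would have sufficed for a call at the background of the NQO1 start region, 2193 bp away. Shared regions of 100 to 150 tags had a median log2 ratio of −0.51, so they stood below equal scaled level in general. Among the 35129 sh-ctrl-only regions near protein-coding genes, 3 had 112 tags or more, this one included. Upstream of GPX4, at −2.02 kb from the start, chr19:1101833-1102106 had 77 tags in sh-ctrl and no sh-VNGD peak. There 24 would have sufficed by pileup, and 41 of the 35129 regions were as high. Both lie where the sh-ctrl local background was high, at 19.0 tags for NQO1 and 16.0 for GPX4, so their fold enrichments were moderate, 5.64 and 4.58. Both regions were narrow, and the start peaks beside them stood at −0.05 and −0.08, as given above.

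The highest region in sh-VNGD only was upstream of HMOX1. HMOX1 is known for distal upstream enhancers that carry response elements. The region chr22:35376993-35377217, at −3.98 kb from the lower-coordinate end, had 31 tags in sh-VNGD, or 9.9 scaled tags, and no sh-ctrl peak. At equal scaled level sh-ctrl would have had 22.7 tags, and 14 would have sufficed by pileup. Of the 80521 regions in sh-VNGD only near protein-coding genes, 1.83% had as many tags. A stronger region farther upstream, chr22:35371864-35372294 at −9.01 kb, had 42 and 45 tags, at −0.01 (−0.65 to 0.63). Beside it, at −9.46 kb, a low region of 12 tags was called in sh-ctrl only. The upstream HMOX1 regions thus comprised 1 of each kind: shared, sh-VNGD only and sh-ctrl only.

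Beside the GPX2 start, other regions called in 1 library only with 25 tags or more were 35 tags inside TXNRD1 (chr12:104296820-104297080), 29 inside NFE2L2 (chr2:177245077-177245327) and 26 downstream of KEAP1 (chr19:10478912-10479123), all in sh-ctrl. In sh-VNGD there was 1 more, of 25 tags inside NQO1 near its 3′ end, and there sh-ctrl at the same scaled level would not have been called.

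Over the 59 shared regions the median log2 ratio was −0.45 and the median relative ratio −0.05. Of the 59, 35 lay below their class median, or 34 of 58 without the GPX2 region that the rule named. Over all shared regions near protein-coding genes, 49.4% lay below. Past a size of 1.5-fold relative to the class, 7 regions (11.9%) were lower in sh-VNGD and 5 (8.47%) higher. Around all protein-coding genes, 10.8% were lower and 8.97% higher, so the shares were near the background. Counting intervals lay wholly below 0 for 5 regions (8.47%) and above for 2 (3.39%), against 5.86% and 3.4%. One of the 5 was the GPX2 region of the rule, and without it 4 of 58 (6.90%) lay below. Without the GPX2 region that the rule named, the lower count was 6 of 58. Among the 37 shared regions with 30 tags or more in either library, 5 were lower and 3 higher, where 12.3% and 9.45% of such regions around all genes were. Those 5 include the GPX2 region that the rule chose for its lower signal. At a size of 2-fold, 1 region was lower, that of GPX2, and 1 higher.

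**Figure D3:**
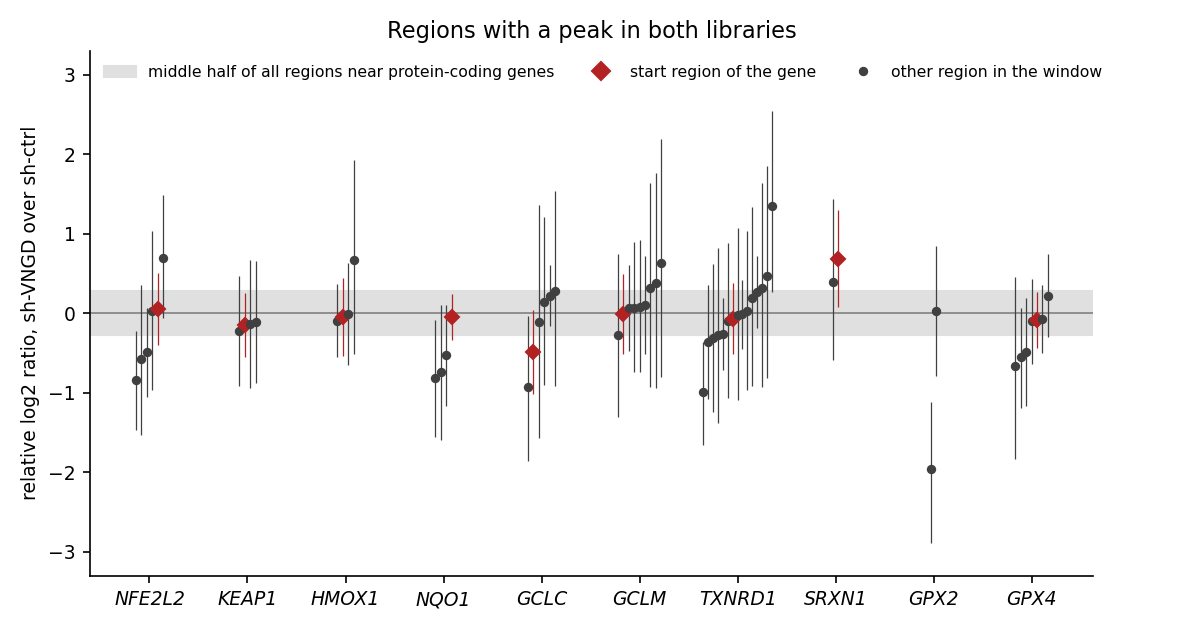
Relative log2 ratio (sh-VNGD over sh-ctrl) of the 59 regions with a peak in both libraries, by gene, with exact Clopper-Pearson 95% counting intervals. Red diamonds are start regions, and the grey band spans the quartiles of all shared regions near protein-coding genes, −0.28 to 0.28. The GPX2 region at −1.96 is the lowest, and the SRXN1 diamond lies above 0.

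Inside NFE2L2, neighbouring regions went opposite ways. The region chr2:177242465-177242836, 22.1 kb into the gene, had 65 and 36 tags, at −0.84 (−1.47 to −0.23). One 24.6 kb in, chr2:177239967-177240299, had 24 and 42, at 0.70 (−0.06 to 1.49), an interval that spans 0. TXNRD1 showed the same mixture. A region at chr12:104295136-104295661 had 61 and 33 tags, at −0.996 (−1.65 to −0.36). Its neighbour 5′ of it, chr12:104293855-104294567, had 78 and 93, at 0.27 (−0.18 to 0.72), and a low region at chr12:104322732-104323428 had 10 and 30, at 1.34 (0.27 to 2.54). Downstream of GCLC, chr6:53493181-53493717 had 29 and 18 tags, at −0.93 (−1.86 to −0.03). At none of the 10 genes did the intervals of all shared regions lie on one side of 0.

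Shared regions lay on one side of their class medians at 3 of the 10 genes: all 4 of KEAP1 and all 4 of NQO1 were below, both of SRXN1 above. How often this holds over all protein-coding genes was not computed. With so few regions per gene the count is a description only. The shared NQO1 regions stood at −0.81 (−1.56 to −0.09) for chr16:69706526-69707186, −0.74 (−1.59 to 0.10) for chr16:69711315-69711645, −0.52 (−1.16 to 0.10) for chr16:69712991-69713369 and −0.05 at the start. Local background in the NQO1 window moved with them. With no input control, this background comes from the same library over 10000 bp and can include the peaks themselves. It is therefore no independent measure, and dividing by it can remove part of a difference in accessibility. Scaled to kept tags, the log2 ratio of local background had a median of −0.82 over the shared NQO1 regions, against 0.00 over all shared regions near protein-coding genes and −0.30 over gene starts. The 0.00 is the value of regions where both libraries stood at their lowest background, 1.40 and 1.92 tags, which scaling fixes at 0. By fold enrichment, which divides by local background, the first 3 of the NQO1 regions stood at −0.24, −0.06 and −0.01. The median background ratio was also low for GPX2 (−0.80) and GPX4 (−0.68), between −0.46 and −0.16 for NFE2L2, TXNRD1, KEAP1, HMOX1, GCLC and GCLM, and 0.27 for SRXN1. The part of local background in the pileup differences was not tested beyond the fold enrichments given here.

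Summed over the 10 windows, peak summits held 3262 tags in 81 sh-ctrl peaks and 3240 in 94 sh-VNGD peaks, a scaled log2 ratio of −0.46. Covered length was 29.8 kb and 33.7 kb and the mean pileup 40.3 and 34.5 tags. The number of peaks rose less than over the genome, 1.16 times against 1.42 times. By gene, the scaled sum ran from −0.90 for NQO1, −0.80 for NFE2L2 and −0.78 for GPX4 to −0.07 for GCLC and 0.60 for SRXN1. For GPX2 it was −1.29 with the region that the rule selected for its lower signal and −0.67 without it, from 50 and 43 tags. SRXN1 was the only gene of the 10 with a higher scaled sum in sh-VNGD, from 2 sh-ctrl and 4 sh-VNGD peaks. Sums move with how much was called, so they describe the windows and not single sites. At the 10 kb bound of the windows, the outermost peak inside lay 9275 bp from HMOX1 with 12 tags, and the nearest outside lay 10267 bp from GPX2 with 31 tags in sh-VNGD.

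The wider pathway was described by 92 further genes in 8 groups, of which 74 had an annotated start in the table. A start region was present in both libraries for 65, in sh-VNGD only for 1 and in neither for 8. The median relative log2 ratio over the 65 was 0.03, against −0.01 over all gene starts. Past 1.5-fold, 4 genes were lower (6.15%) and 3 higher (4.62%), against 4.28% and 4.03% of all gene starts. Counting intervals lay wholly below 0 for 4 (6.15%) and above for 2 (3.08%), against 4.16% and 3.56%.

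**Figure D4:**
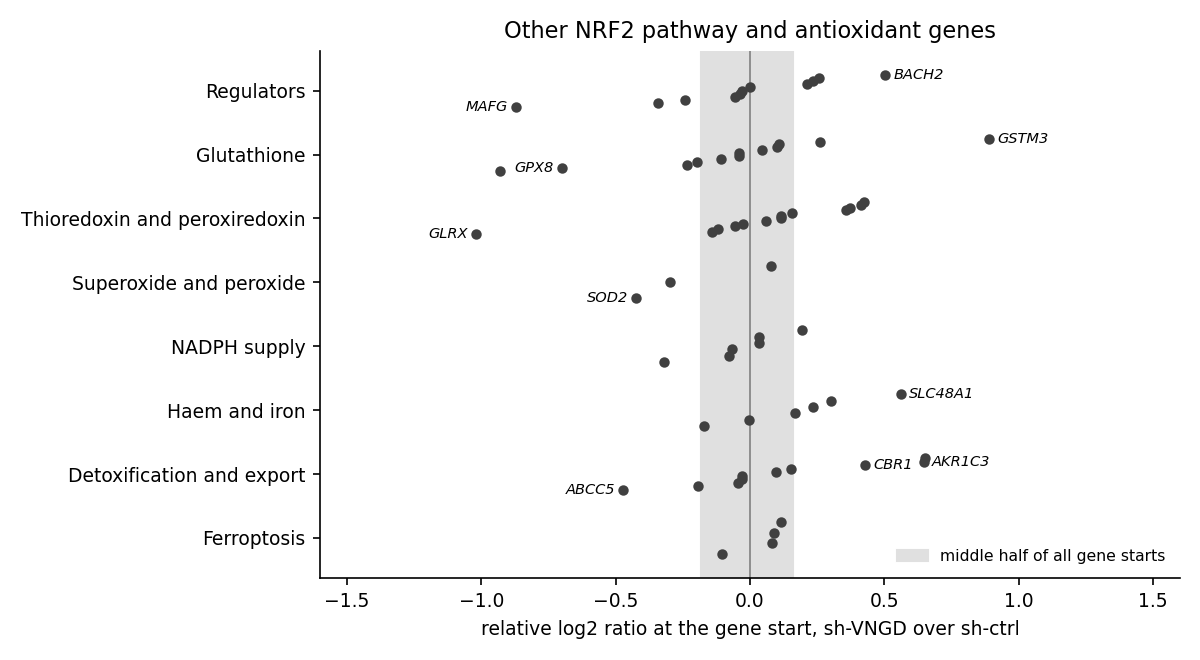
Relative log2 ratio at the start region (sh-VNGD over sh-ctrl) for 65 further NRF2 pathway and antioxidant genes, by group. The grey band spans the quartiles of all gene starts, −0.18 to 0.16, and the labelled genes are the 5 lowest and 5 highest with at least 30 tags in either library. GLRX at −1.02 is the lowest and GSTM3 at 0.89 the highest of those labelled.

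Among regulators, MAFG, a small MAF partner of NRF2, had 61 and 36 tags, at −0.87 (−1.51 to −0.25). BACH2, a repressor at response elements, had 57 and 80, with a relative ratio of 0.50 and an interval that reaches 0. The 11 regulators with a region had a median of −0.03. In the thioredoxin and peroxiredoxin group, GLRX, a glutaredoxin, had 36 and 21 tags, at −1.02 (−1.87 to −0.20), while the 13 genes had a median of 0.11. The glutathione group (12 genes, median −0.04) held both GPX8, an endoplasmic reticulum peroxidase with 33 and 24 tags at −0.70 (−1.52 to 0.10), and GSTM3, a glutathione transferase with 42 and 77 tags at 0.89 (0.33 to 1.47). Each of these groups thus held single genes apart from a median near 0.

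SOD2, the mitochondrial superoxide dismutase, had 144 and 103 tags, at −0.43 (−0.80 to −0.05), and ABCC5, an export pump, 108 and 77, at −0.47 (−0.91 to −0.04). SLC48A1, a haem transporter, had 63 and 92 tags, at 0.56 (0.08 to 1.05). The carbonyl reductase gene CBR1 had 72 and 96 tags, at 0.43 (−0.03 to 0.89). AKR1C3, an aldo-keto reductase, had 29 and 49, at 0.65 (−0.04 to 1.36), and its relative AKR1C2 had a start region in sh-VNGD only, of 21 tags. Reads of the AKR1C and GSTM genes can be shared among near-identical copies, so their values are uncertain. The 6 NADPH supply genes with a start region had a median of −0.02 and the 4 ferroptosis genes a median of 0.08. None of either group lay past 1.5-fold. Farther from 0 were the 3 superoxide and peroxide genes, with a median of −0.30, and the 6 haem and iron genes, with 0.20. For the 10 detoxification and export genes with a region in both libraries it was 0.03.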

How the data were processed

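Per the file headers, the authors called peaks on each library by itself with MACS 2.1.0.20150731 and no input control (5′ ends shifted by 100 bp and extended to 200 bp, 1 tag per position kept, q cutoff 0.05, local background over 10000 bp). The builds hg38 and GRCh38.p13 and the tools deepTools, MACS2 (2.1.2) and Bowtie2 (2.2.5) appear in the submitters' processing notes. The header of the sh-VNGD list carries another run name, and the label was followed. Alignment filters are not given in the sources used here. The deposited pileup is a signal, unscaled tags at the summit, and was treated as a count for the intervals. The deposited fold enrichment over local background and the −log10 p and −log10 q values are the authors' own. Tags read were 51628228 for sh-ctrl and 48164322 for sh-VNGD, of which 56% and 35% repeated a position.

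Peaks on chromosomes 1 to 22, X and Y overlapping by at least 1 bp were merged, and the highest pileup per library was used. Ratios have exact Clopper-Pearson 95% intervals, checked on simulated counts. The relative ratio subtracts the median of its class of mean pileup (7 classes). Local background was recovered as (pileup + 1) / fold enrichment − 1. Genes and starts came from RefSeq tables of GRCh38.p14, and a start region is the highest region within 1000 bp of an annotated start. Exons were not used here. The number of tags needed for a call was the smallest pileup whose Poisson p reaches the weakest called in that library. Peak width was not part of it.

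All 10 members were named. Of the 92 further genes, the rule named the 5 lowest and 5 highest start ratios with at least 30 tags in either library, starts in 1 library only with at least 20 tags, and neighbours with an outer end within 1000 bp of a region described. The members and lists were chosen with earlier results of these data known. Python 3.11.15, pandas 2.3.3, scipy 1.17.1 and numpy 2.4.6 were used.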

Additional observations from a re-analysis of the deposited data

How the results depend on the processing

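With 1 library per group, no replicate could be left out. No paired analysis was possible because each group holds 1 sample and the labels give no replicate numbers. Of 68 alternatives over the results of the report, 59 stayed within a limit and 9 did not. The limit was counting error (for a median, the interval of the tags summed over its regions) or, for counts, 1.5 times. The 59 are no measure of stability. They include other start distances for single genes, which gave the same value as the main setting for every gene. SRXN1 is also among them, at 0.68 by pileup and 0.13 by fold enrichment, because its interval is wide (0.08 to 1.30). All 9 that moved were results over sets of regions. The median log2 ratio of the shared member regions was −0.45 scaled to kept tags, 0.00 without scaling, 0.10 scaled to tags read and −0.0391 by fold enrichment, so its sign rests on the scaling. By fold enrichment the median relative ratio went from −0.05 to 0.0887 over the shared regions and from −0.05 to 0.0947 over the 9 start regions. Of regions past the fold, at 2-fold there was 1 lower in place of 7 and 1 higher in place of 5, with one median for all gene starts there were 10 higher, and among regions with at least 30 tags in either library there were 3 higher. The cause was not tested. The GPX2 region of the rule stood at −1.96, at −1.83 with one median for all gene starts and at −1.42 by fold enrichment. Adding outer gene ends and one median for the start ratios were chosen after seeing the data. With low pileups the intervals are wide, and a 1.5-fold difference was not detectable at this depth in regions of about 15 tags. The limit reached higher pileups too. A 1.5-fold difference is a log2 ratio of 0.585, and the FTH1 region of 48 and 50 tags, at −0.05, had an interval of −0.65 to 0.55.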

Other observations

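For 18 further pathway genes without an annotated start in the table, the higher of the outer gene ends was read instead, which may be either end of the gene. A region was present for 16, in both libraries for 14. SLC7A11, the cystine transporter that feeds glutathione synthesis, had 100 and 90 tags (sh-ctrl first), at a relative log2 ratio of −0.14 (−0.56 to 0.29). The iron storage gene FTH1 had 48 and 50, at −0.05 (−0.65 to 0.55). GSR, glutathione reductase, had 80 and 46 tags, at −0.78 (−1.34 to −0.24). ABCC3, an export pump, had a region of 32 tags in sh-ctrl only. These 4 genes were chosen after their values were seen.

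The windows also held start or end regions of neighbouring genes. MCM5, a replicative helicase subunit beside HMOX1, had 84 and 78 tags, at −0.09 (−0.56 to 0.37). POLR2E, an RNA polymerase subunit beside GPX4, had 60 and 69, at 0.22 (−0.30 to 0.74), and DNTTIP2 beside GCLM 44 and 51, at 0.10 (−0.51 to 0.72).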
